A study of Mus musculus with 6 samples.

Results

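Granzyme B, perforin, their carrier serglycin and 5 serpins were followed in human leukemic cells taken from mice. The members were set by symbol: GZMB, PRF1, SRGN, SERPINF1, SERPINB1, SERPINB6, SERPINB8 and SERPINB9. All 8 were among the 13892 gene rows of the deposited table, and all 8 passed the filter on low values. Each mouse was of the immunodeficient NSG strain, had been humanized, and carried an acute myeloid leukemia (AML) driven by NPM1c, a mutant nucleophosmin introduced into human hematopoietic stem cells. The 3 mice came from 3 separate transductions and were moribund at harvest. From each marrow a bulk leukemic population was sorted on GFP and CD33, and a population named leukemic stem cells (LSC) was sorted on GFP, CD33 and CD123. Both populations of a mouse therefore share the same transgene, host and leukemia, and there was no healthy or untransduced group. The bulk gate set no condition on CD123, so it could contain cells of the LSC gate. GFP stood in for the transgene, and the sources used here do not give its promoter. Each population had 3 libraries, numbered by mouse.

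Cytotoxic lymphocytes store granzymes and perforin in secretory granules. Perforin forms pores in the target membrane, and granzyme B, a serine protease that cuts after aspartate, then enters and cleaves caspases and other proteins. Serglycin is the proteoglycan on which granule proteases are packed, through its glycosaminoglycan chains. Serpins are suicide inhibitors that trap a protease in a covalent complex. The intracellular clade B members guard the cytosol and nucleus against proteases that leak from granules, and SERPINB9 is the human inhibitor of granzyme B. Outside lymphocytes, granzyme B is also made by plasmacytoid dendritic cells, mostly without perforin.

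Values are given in CPM, reads scaled by the authors to a normalized library size, and fold changes as log2 of LSC over bulk. The libraries held 10669560 to 14933494 reads, of which 27.2% to 70.0% lay on MTRNR2L rows, which resemble mitochondrial ribosomal RNA. Bulk replicate 1 had the highest share and the fewest other reads, 3423878. A count of 3 reads stood for 0.514 CPM in that library and for 0.190 to 0.254 CPM in the other libraries. IL3RA, which encodes the sorting antigen CD123, followed the gates, at 1.54 to 2.37 CPM in bulk and 48.0 to 140 CPM in LSC. CD33 was low in all libraries, at 4.45 to 13.1 CPM in bulk and 1.17 to 8.05 CPM in LSC. In sorted populations a smaller number of cells of a type and less RNA per cell cannot be told apart.

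GZMB and SERPINF1 rose in LSC, and no member fell, in a limma fit without the mouse. These 2 of 8 compare with 2.71% of all 13755 genes tested that were higher and 1.33% that were lower at an adjusted p of 0.05. With the mouse as a block SERPINB9 was also called higher and SERPINB1 lower, which makes 3 higher and 1 lower. In that blocked fit 8.25% of all genes were higher and 7.71% lower. PRF1, SRGN, SERPINB6 and SERPINB8 passed in neither fit. The median log2 change of the 8 members was 0.29, against -0.0036 for all genes tested. Groups did not overlap for 4 members, GZMB, SERPINF1, SERPINB6 and SERPINB9, and for 25.2% of all genes tested.

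**Figure D1:**
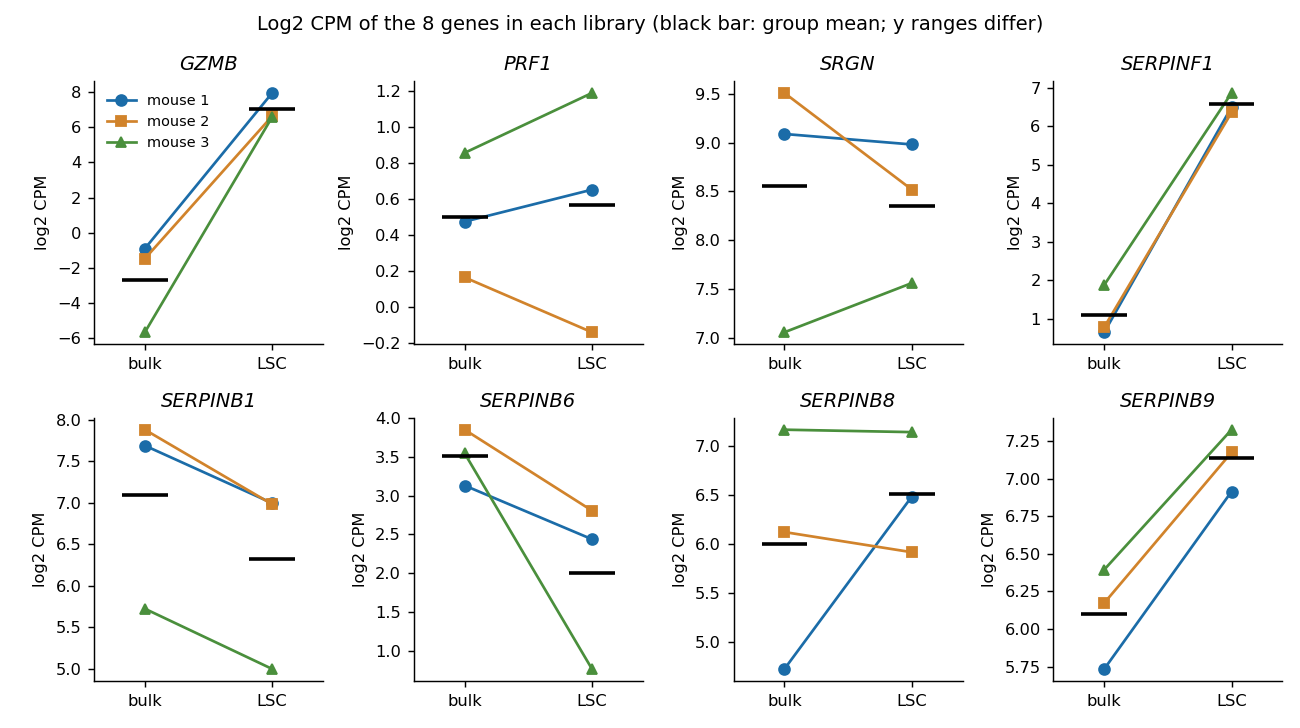
Log2 CPM (y axis) of each of the 8 genes in bulk and LSC (x axis), with a line joining the 2 libraries of a mouse and a black bar at the group mean. GZMB and SERPINF1 climb steeply in all 3 mice, SERPINB9 climbs by a similar step in each, and PRF1, SRGN and SERPINB8 move in different directions among mice.

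Of the effector proteins, granzyme B changed and perforin did not pass. GZMB stood at 0.514, 0.339 and 0 CPM in bulk replicates 1, 2 and 3, which are 3, 4 and 0 reads. In LSC replicates 1, 2 and 3 it stood at 247, 99.2 and 95.6 CPM, from 3347, 1565 and 1311 reads. Every bulk library was thus near the limit of detection, and every LSC library was far above it. The bulk replicate 3 count of 0 allows up to 0.192 CPM. Mean CPM was 0.284 ± 0.261 in bulk and 147 ± 86.6 in LSC (SD, n = 3). The log2 change was 9.74 (SE 1.11, limma adjusted p = 0.00226), higher in 3 of 3 mice. Its size depends on the prior that keeps a count of 0 finite: on a log2(CPM + 1) scale it was 6.73, and without bulk replicate 3 it was 8.25. The ratio of pooled reads, scaled to library size, was 688, with an exact 95% interval of 334 to 1711 that covers counting error only. GZMB also differed among LSC libraries, with LSC replicate 1 highest.

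PRF1, the pore-forming partner, was scarce in every library. It stood at 1.37, 1.10 and 1.79 CPM in bulk replicates 1 to 3, from 8, 13 and 28 reads, and at 1.55, 0.888 and 2.26 CPM in LSC replicates 1 to 3, from 21, 14 and 31 reads. The groups overlapped, and mouse 3 was highest in each population. The log2 change was 0.07 (SE 0.72, limma adjusted p = 0.967), with a 95% interval of -1.55 to 1.69. That interval is wide in both directions, so these counts do not show that PRF1 was equal in the populations.

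SRGN, the granule carrier, was read deeply in all libraries. It stood at 544, 728 and 133 CPM in bulk replicates 1, 2 and 3 and at 505, 367 and 189 CPM in LSC replicates 1, 2 and 3. Both libraries of mouse 3 were the lowest, and the groups overlapped. The log2 change between populations was -0.20 (SE 0.61, limma adjusted p = 0.882), with a 95% interval of -1.58 to 1.18, or -0.81 to 0.41 with the mouse as a block. By mouse the change was -0.11, -0.99 and 0.50, so the direction was not shared. In fits without the mouse the sign turned to 0.07, 0.28 and 0.20 on leaving out bulk replicate 1, bulk replicate 2 or LSC replicate 3.

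**Figure D2:**
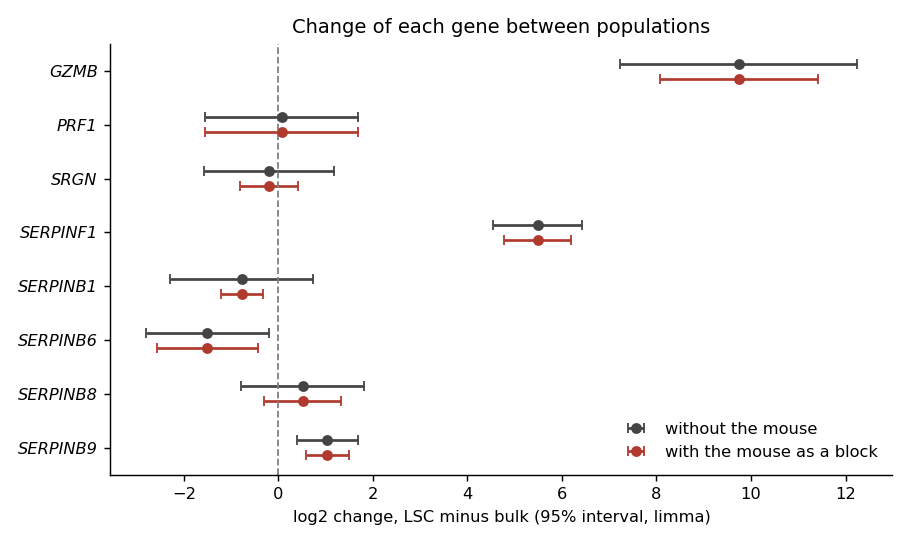
Log2 change of each gene between LSC and bulk (x axis) with its limma 95% interval, without the mouse (grey) and with the mouse as a block (red). The intervals are not adjusted for the number of genes. Those of GZMB and SERPINF1 lie far above 0 in both fits, that of SERPINB1 leaves 0 only with the block, and those of PRF1, SRGN and SERPINB8 include 0 in both. SERPINB9 lies above 0 and SERPINB6 below 0 in both fits. After adjustment SERPINB9 passed only with the block and SERPINB6 in neither fit.

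SERPINB9, the inhibitor of granzyme B, was higher in LSC in each mouse, a difference that passed only with the mouse as a block. It stood at 53.2, 72.2 and 84.1 CPM in bulk replicates 1, 2 and 3 and at 121, 144 and 160 CPM in LSC replicates 1, 2 and 3. The groups did not overlap, and mouse 1 was lowest and mouse 3 highest in each. The log2 change was 1.04 (SE 0.29), with a limma adjusted p of 0.0825 without the mouse and 0.0107 with it. By mouse the change was 1.18, 1.00 and 0.93. The step in the inhibitor was small beside that of the protease, for which the same mice gave log2 changes of 8.86, 8.11 and 12.25. The first 2 values rest on 3 and 4 GZMB reads in bulk replicates 1 and 2. The last value is set by the absence of a GZMB read in bulk replicate 3. In LSC the mean levels were 147 CPM for GZMB and 142 CPM for SERPINB9.

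SERPINF1 encodes pigment epithelium-derived factor, a secreted serpin without known inhibitory activity toward proteases. It stood at 1.54, 1.69 and 3.65 CPM in bulk replicates 1, 2 and 3 and at 90.8, 82.4 and 117 CPM in LSC replicates 1, 2 and 3. The LSC libraries were within a narrow range, far above every bulk library. Mean CPM was 42.2-fold higher, and the log2 change was 5.48 (SE 0.42, limma adjusted p = 0.000587), positive in 3 of 3 mice. Its neighbour in the family, SERPINF2 or alpha-2-antiplasmin, missed the filter and was not tested. SERPINF2 stood at 0, 0 and 0.320 CPM in bulk and at 1.11, 0.761 and 1.90 CPM in LSC, and was named after its values were seen.

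The other clade B serpins took separate courses. SERPINB1, an inhibitor of neutrophil elastase, proteinase 3 and cathepsin G, stood at 207, 236 and 52.8 CPM in bulk replicates 1, 2 and 3 and at 128, 127 and 31.9 CPM in LSC replicates 1, 2 and 3. Within each mouse LSC was lower, by 0.69, 0.90 and 0.73 on the log2 scale, while the groups overlapped, with mouse 3 low in both. The log2 change was -0.77 (SE 0.67), with a limma adjusted p of 0.55 without the mouse and 0.0306 with it. Without LSC replicate 3 the unblocked change was -0.11, and without bulk replicate 3 it was -1.46.

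SERPINB6, an inhibitor of cathepsin G and other proteases, stood at 8.73, 14.4 and 11.6 CPM in bulk replicates 1, 2 and 3. In LSC replicates 1, 2 and 3 it stood at 5.39, 6.97 and 1.68 CPM. The groups did not overlap, and LSC replicate 3, with 23 reads, was the lowest library. The log2 change, -1.51 (SE 0.58), passed in neither fit (limma adjusted p = 0.188 without the mouse and 0.0625 with it). Without LSC replicate 3 it was -0.89.

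SERPINB8, an inhibitor of furin-like proteases, stood at 26.4, 69.5 and 144 CPM in bulk replicates 1, 2 and 3 and at 89.3, 60.3 and 141 CPM in LSC replicates 1, 2 and 3. Log2 changes in mice 1, 2 and 3 were 1.76, -0.21 and -0.02, so the positive mean came from mouse 1. The log2 change over the 3 mice was 0.51 (SE 0.57, limma adjusted p = 0.657), with a 95% interval of -0.78 to 1.80. It was -0.13 without bulk replicate 1, the library with the most MTRNR2L reads, whose part in the value was not tested.

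Levels of SERPINB1 and SRGN differed between mice. A limma F test of the mouse, chosen after the values were seen, called 1.56% of all genes tested. SERPINB1 averaged 167 and 181 CPM in mice 1 and 2 and 42.4 CPM in mouse 3 (adjusted p = 0.0105), and SRGN averaged 525, 547 and 161 CPM in the same order (adjusted p = 0.0497). The SERPINB1 call was lost in 7 of 18 alternative settings and the SRGN call in 11 of 18. Without mouse 3 neither gene differed beyond the spread (adjusted p = 0.833 and 0.961). Without 1 library of mouse 1 or 2 the calls were lost, at an adjusted p of 0.0582 to 0.144 for SERPINB1 and 0.142 to 0.207 for SRGN. SERPINB8 was highest in mouse 3, at 57.9, 64.9 and 142 CPM in mice 1, 2 and 3, and did not pass (adjusted p = 0.141). The other 5 members had an adjusted p of 0.154 to 0.699. SERPINB8 was called in 2 of 18 settings, without bulk replicate 3 (0.0306) and without LSC replicate 3 (0.000108). GZMB was called in 1, without LSC replicate 3 (0.000319), and SERPINB6 in 1, without bulk replicate 3 (0.0299).

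Neutrophil granule genes moved with this split between mice. Of 10 markers tested, 6 differed by the same F test, beside 1.56% of all genes. Between populations none of the 10 passed without the mouse. With the block 6 fell in LSC, namely MPO, ELANE, PRTN3, CTSG, AZU1 and LYZ, beside 7.71% of all genes. The mean log2 CPM of the 10 was 6.64 and 7.50 in bulk replicates 1 and 2 against 2.63 in bulk replicate 3, and 5.15, 5.34 and 1.23 in LSC replicates 1, 2 and 3. ELANE, neutrophil elastase, stood at 60.3 and 161 CPM in bulk replicates 1 and 2 and at 1.54 CPM in bulk replicate 3. The summed CPM of the list did not show the split in bulk, at 3988, 7866 and 4105 in bulk replicates 1, 2 and 3, since LYZ, lysozyme, alone had 3976 in bulk replicate 3. The part of neutrophil granule content in the SERPINB1 and SRGN values was not tested.

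**Figure D3:**
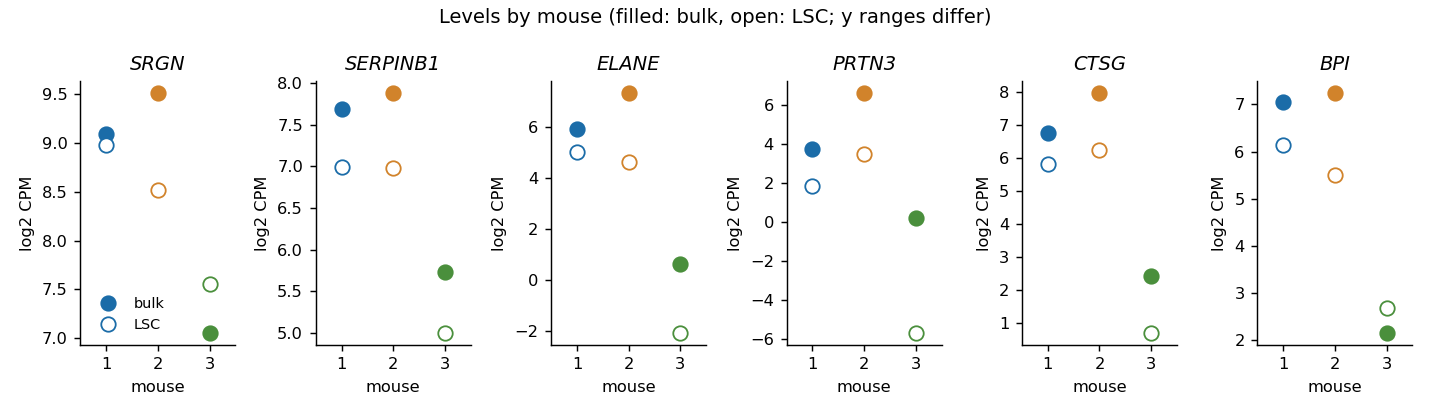
Log2 CPM (y axis) of SRGN, SERPINB1 and 4 neutrophil granule genes by mouse (x axis), with filled circles for bulk and open circles for LSC. Both libraries of mouse 3 are the lowest for all 6 genes. The 4 granule genes were picked from the list of 10 markers, in which LYZ and CAMP did not follow that order. LYZ was at 2505 CPM in bulk replicate 1 and 3976 CPM in bulk replicate 3. CAMP was at 2.73 CPM in LSC replicate 2 and 13.9 CPM in LSC replicate 3.

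Other cytotoxic effectors were few. Of 10 listed genes, 4 had a row, and none of these passed; GZMA, GZMH, GZMK, GZMM, GNLY and FASLG are not analysed here. GZMB and GZMH are close relatives, so reads of one could have been assigned to the other. The death ligand gene TNFSF10 stood at 18.2 ± 7.88 CPM in bulk and 31.0 ± 6.70 CPM in LSC (limma adjusted p = 0.272). CST7, cystatin F, an inhibitor of granule cathepsins, stood at 24.2 ± 17.6 and 10.9 ± 8.11 CPM. CST7 passed as lower with the mouse as a block (limma adjusted p = 0.0311) and not without it (0.524).

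Most genes for granule processing and release did not pass. Of 18 members 1 fell, none rose and 17 did not pass, beside 1.33% of all genes lower and 2.71% higher, with a median log2 change of -0.29. The gene that fell was LYST, which regulates the size of lysosome-related organelles, from 1100 ± 247 to 436 ± 124 CPM (log2 change -1.35, SE 0.32, limma adjusted p = 0.049). In fits without the mouse that call was lost on leaving out any 1 of the 6 libraries, at an adjusted p of 0.0504 to 0.188. With all libraries and the block, LYST passed (limma adjusted p = 0.00229). CTSC, dipeptidyl peptidase 1, which trims progranzymes to active enzymes, stood at 357 ± 101 and 652 ± 220 CPM (adjusted p = 0.216). In the blocked fit 2 members rose and 2 fell, beside 8.25% and 7.71% of all genes. These were M6PR, a mannose 6-phosphate receptor (log2 change 1.37, blocked adjusted p = 0.0107), CTSH, a cathepsin (1.13, 0.0182), RAB27A, a GTPase of granule docking (-1.38, 0.00936), and LYST. M6PR, CTSH and RAB27A were named after their values were seen.

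Among 22 genes whose products granzymes are known to cleave, 2 fell and none rose, beside 1.33% and 2.71% of all genes, with a median log2 change of -0.25. With the block 5 fell and 1 rose, beside 7.71% and 8.25% of all genes. HMGB2, a chromatin protein cut by granzyme A, fell from 514 ± 68.5 to 157 ± 62.8 CPM (log2 change -1.78, limma adjusted p = 0.0214). PRKDC, the DNA-dependent protein kinase, fell from 448 ± 68.1 to 190 ± 24.9 CPM (-1.23, adjusted p = 0.033). In fits without the mouse, the HMGB2 call was lost without bulk replicate 1 or LSC replicate 3 (adjusted p = 0.0825 and 0.0729). The PRKDC call was lost without any 1 of the 6 libraries (0.0678 to 0.127). With all libraries and the block, HMGB2 and PRKDC passed (limma adjusted p = 0.00214 and 0.00551). BID, through which granzyme B engages the mitochondrial route of apoptosis, had a log2 change of 0.86 that passed in neither fit. DFFA, the inhibitor of the caspase-activated nuclease, had a log2 change of 1.43 that passed with the block (limma adjusted p = 0.00259). BID and DFFA were named after their values were seen.

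**Figure D4:**
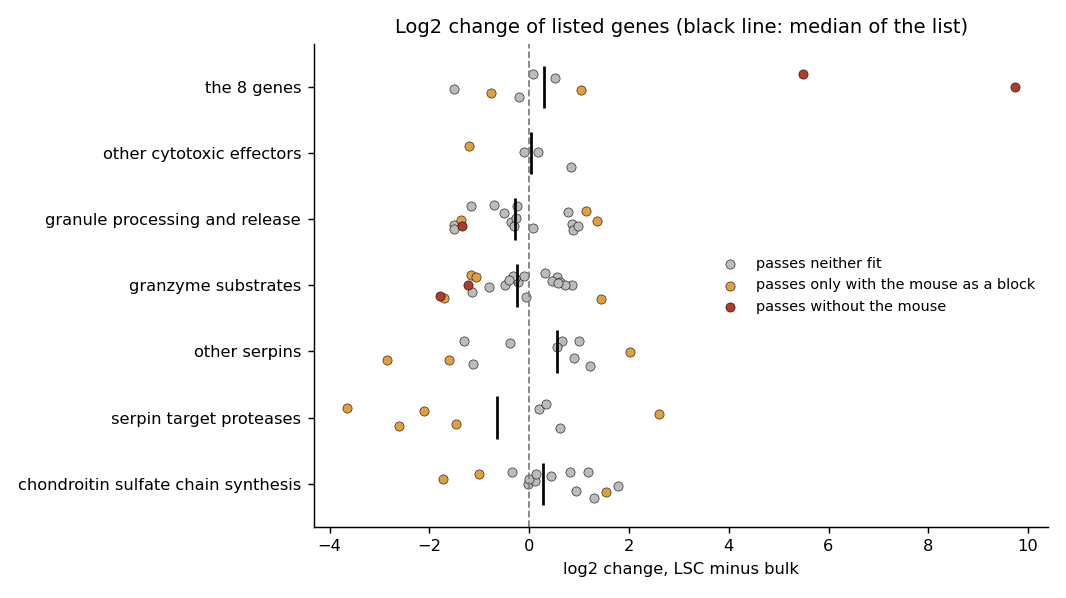
Log2 change between LSC and bulk (x axis) of every tested gene of the 8 members and of 6 related lists, 1 point a gene, with a black line at each median. Red points pass without the mouse and orange points only with the mouse as a block; GZMB and SERPINF1 are the only points above 4.

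Of 25 other serpins 12 had a row and 11 were tested, and none passed without the mouse. The median log2 change was 0.55, with 6 positive and 5 negative values. SERPINB10, a nuclear clade B serpin of myeloid cells, stood at 44.6 ± 33.4 and 15.9 ± 8.58 CPM (limma adjusted p = 0.481). SERPING1, the C1 inhibitor, stood at 9.91 ± 7.12 and 35.6 ± 13.5 CPM, and its log2 change of 2.01 had an adjusted p of 0.0682, or 0.00365 in the blocked fit. With the block, where 8.25% of all genes were higher and 7.71% lower, 1 rose, SERPING1, and 2 fell, SERPINA1 or alpha-1-antitrypsin (log2 change -2.86, limma adjusted p = 0.00935) and SERPINB2 (-1.61, 0.0499). SERPINA1 and SERPINB2 were named after their values were seen.

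Genes listed as serpin target proteases were called only when the mouse was in the fit. None of 8 passed without it, with a median of -0.64. With the block 4 fell and 1 rose, beside 7.71% and 8.25% of all genes, and 5 of 8 differed between mice, beside 1.56% of all genes. The 1 that rose was PLAU, urokinase (log2 change 2.60, blocked limma adjusted p = 0.00402), higher in LSC in 3 of 3 mice. PLAU also differed between mice (limma F test adjusted p = 0.0315) and was named after its values were seen. The 4 that fell were ELANE, PRTN3, CTSG and AZU1, which also differed between mice. These 4 are the same genes already counted among the neutrophil granule markers, and AZU1 encodes azurocidin, a relative of these proteases without catalytic activity. CTSG, cathepsin G, stood at 107, 250 and 5.37 CPM in bulk replicates 1, 2 and 3 and at 56.5, 74.9 and 1.60 CPM in LSC replicates 1, 2 and 3. The change of CTSG was -1.46 on the log2 scale, with a limma adjusted p of 0.651, or 0.00898 in the blocked fit. For ELANE it was -2.10, with 0.597 and 0.0125. SERPINB1, CTSG and ELANE were each lower in LSC within every mouse and lowest in mouse 3.

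No enzyme that builds chondroitin sulfate chains, the kind serglycin carries, passed without the mouse. The 14 tested had a median log2 change of 0.28, and 1 rose and 2 fell with the block, beside the same 8.25% and 7.71%. UST rose (log2 change 1.54, blocked limma adjusted p = 0.0181), and CSGALNACT1 (-1.72, 0.00748) and CHSY1 (-1.01, 0.0381) fell. UST, CSGALNACT1 and CHSY1 were named after their values were seen. CHST11, a sulfotransferase, stood at 53.4 ± 8.13 and 53.1 ± 5.99 CPM, and FAM20B, a xylose kinase, at 40.7 ± 4.51 and 46.8 ± 17.0 CPM. The log2 changes were -0.0043 and 0.13.

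Markers of cell types that make granzyme B were examined beside it. Of 16 plasmacytoid dendritic cell markers 14 rose in LSC, or 16 with the block, beside 2.71% and 8.25% of all genes. Their summed level was 175 to 456 CPM in bulk and 1980 to 3500 CPM in LSC. LILRA4, a defining marker, had no read in bulk replicates 1 and 2 and 1 read in bulk replicate 3, against 51.5, 31.0 and 88.4 CPM in LSC replicates 1, 2 and 3. IL3RA is on that list and was sorted on. GZMB was highest in LSC replicate 1, where the summed level was 3215 CPM, and was similar in LSC replicates 2 and 3, where it was 1980 and 3500 CPM. Much of that sum came from TCF4 and IRF8, at 789 and 982 CPM in LSC replicate 1, 409 and 565 CPM in LSC replicate 2, and 1089 and 932 CPM in LSC replicate 3. Single markers ordered the LSC libraries differently. CLEC4C was highest in LSC replicate 1, at 127, 80.1 and 95.1 CPM in LSC replicates 1, 2 and 3, while LILRA4 was highest in LSC replicate 3. The part of plasmacytoid dendritic cells in the GZMB, SERPINF1 and SERPINB9 values was not tested.

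No T or NK cell marker passed the test between populations in either fit. Of all genes, 2.71% were higher and 1.33% lower without the mouse, and 8.25% and 7.71% with the block. At those shares, 0 of 13 tested does not show equal levels of these markers in the populations. Of 22 markers 13 had a row, and their summed level was 86.6 to 132 CPM in bulk and 121 to 149 CPM in LSC. Most of it came from KLRD1, the lectin CD94, at 52.4 to 98.1 CPM. CD3G, a chain of the T cell receptor complex, stood at 3.08, 10.9 and 9.47 CPM in bulk and at 10.7, 15.7 and 13.9 CPM in LSC, higher in LSC in 3 of 3 mice (limma adjusted p = 0.34, and 0.117 in the blocked fit). CD3E, of the same complex, had 0 to 2.29 CPM, with no read in LSC replicate 2, and CD8A had 0 to 3.01 CPM, with no read in bulk replicate 1. NKG7, a cytotoxic granule membrane protein, stood at 10.4, 21.5 and 1.86 CPM in bulk and at 8.65, 18.1 and 3.87 CPM in LSC. IL2RB had no read in LSC replicate 3.

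**Figure D5:**
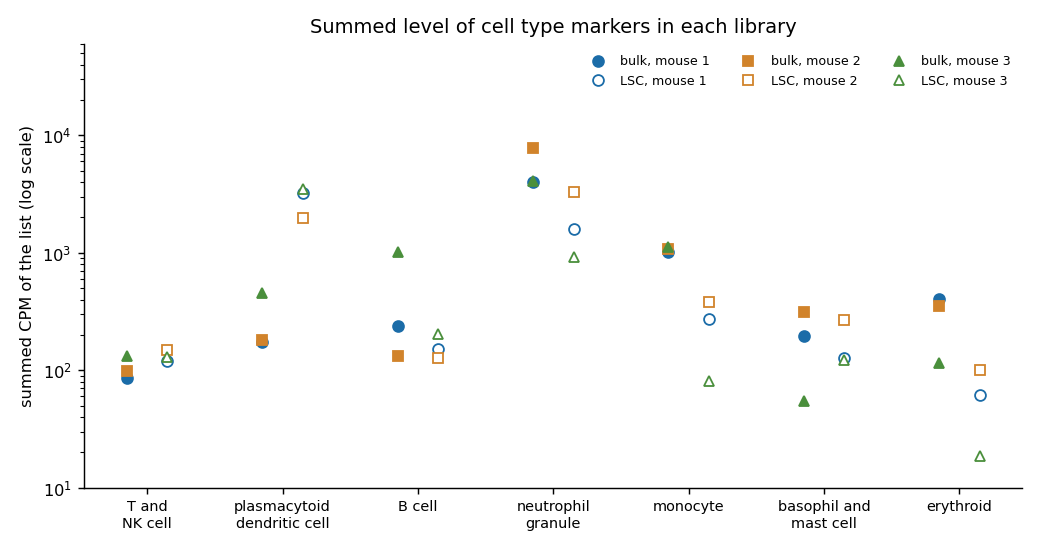
Summed CPM of 7 marker lists (y axis, log scale) in each library, with filled symbols for bulk and open symbols for LSC. The plasmacytoid dendritic cell list is higher in every LSC library than in any bulk library, and the T and NK cell list lies between 86.6 and 149 CPM in all 6.

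Of the other lists, basophil and mast cell markers had a summed level of 54.8 to 316 CPM in bulk and 123 to 270 CPM in LSC. None of 7 passed without the mouse, while 1 rose, GATA2, and 2 fell, TPSB2 and CPA3, with the block. For this and the next lists, 2.71% of all genes were higher and 1.33% lower without the mouse. With the block the shares of all genes were 8.25% and 7.71%. B cell markers summed to 1014 CPM in bulk replicate 3 against 126 to 236 CPM in all other libraries, and 2 of 7 fell, or 3 with 1 higher in the blocked fit. Monocyte markers summed to 1013 to 1130 CPM in bulk and 81.0 to 380 CPM in LSC, and 1 of 6 fell, or 4 in the blocked fit. Erythroid markers summed to 114 to 403 CPM and 18.5 to 101 CPM, and 2 of 7 fell, or 5 in the blocked fit. Whether these shifts bear on SERPINB1, SERPINB6 or SERPINB8 was not tested.

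The genes most like each member over the 6 libraries were ranked by Pearson r of log2 CPM. The candidates were genes with an SD of at least 1, and the values describe these libraries only. The libraries share mice and gates. For GZMB they were PFKFB2, ATP13A2, PRMT7 and PTPRS (r from 0.993 to 0.995). For SERPINF1 they were LILRA4, DTX4 and CCDC50 (0.997 to 0.999), and for SERPINB9 SPIB, LIMD1, IFNLR1 and CTSB (0.985 to 0.998). For SERPINB1 they were H1F0, CST7, CLEC5A and ELANE (0.992 to 0.997), and for SRGN DTNA, ANXA3, BPI and COL17A1 (0.985 to 0.996). SERPINB6 was most like HIST1H1E, ZBED3, EGR2 and SLC7A7 (0.991 to 0.998). PRF1, at 0.956 to 0.986, and SERPINB8, at 0.937 to 0.952, had looser matches, led by HIST2H2BE and CASC1. Several matches were low. Mean CPM over the 6 libraries was 2.41 for ATP13A2, 4.12 for PRMT7, 1.92 for DTNA, 1.03 for ZBED3, 1.47 for EGR2 and 1.29 for CASC1. On a log2 scale, libraries with few or no reads can weigh heavily on r, and GZMB had no read in bulk replicate 3.

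In the authors' deposited table the log2 changes, turned to LSC minus bulk, were 9.52 for GZMB and 5.48 for SERPINF1, each with a false discovery rate of 0.0813. That rate was the lowest in the authors' deposited table, in which 0 genes were under 0.05 and 1723 had an unadjusted p under 0.05. The authors' deposited table gave SERPINB9 an unadjusted p of 0.0507 and SERPINB6 one of 0.0541, with rates of 0.403 and 0.414. The other 4 members had rates of 0.65 to 0.978 in the authors' deposited table.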

How the data were processed

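Per the submitters' processing notes, RSEM, Bowtie2, edgeR and hg19 were used, with no version or role given. Per the labels' protocols, cDNA was amplified with a NuGEN Ovation kit. The authors' deposited table holds log2 CPM per library. Per the file headers it also holds the authors' own comparison: a log2 fold change (bulk minus LSC), a p-value, its false discovery rate, and a likelihood ratio score. The organism label names the mouse host, while symbols and build are human. The reference at hand is of mouse, so no coordinates or sequences are given.

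All 6 columns shared a floor of 0.0197 CPM and rose from it in whole steps. Reads were read off as the number of steps above the floor, whole within 0.1 for 100% of values. CPM here is without the floor. Amplified reads are not independent molecules, so limits and intervals from reads hold for counting error alone. Library pairs all differed by more than sampling noise.

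The 13755 of 13892 genes that reached 1 CPM in 3 or more libraries were tested on the deposited log2 values with limma 3.58.1 in R 4.3.3 (two-sided, eBayes with a trend), with Benjamini-Hochberg adjustment over all genes tested and a threshold of 0.05. Leaving out libraries kept the same genes. Libraries with the same number come from 1 mouse, and their deviations from group means correlated at 0.33, 0.35 and 0.30 over genes. The number therefore pairs them, and the fit with the mouse as a block is given where it changed a call or count. With 3 libraries against 3 an exact permutation test cannot go below p = 0.1. Fitting code was tested on simulated reads.

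Members, lists and tests were chosen with earlier results of these data known. Named genes are the members, IL3RA, list genes past the threshold (or the 2 with the highest mean CPM where fewer than 2 passed), and the 4 genes most like each member. Left out of the latter were Y-linked, XIST, immunoglobulin, T cell receptor and HLA genes and rows without a symbol or with a LOC identifier. Not every gene under this rule is reported here. Further names were picked with values in view. Alternatives were other pseudocounts, filters and scalings, eBayes without trend, the block, voom on recovered reads, and leaving out each library or mouse. Scaling to reads outside the MTRNR2L rows and the F test of the mouse were added after seeing the data.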

Additional observations from a re-analysis of the deposited data

How the results depend on the processing

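GZMB and SERPINF1 stayed called as higher in all 20 alternatives, with log2 changes of 4.71 to 10.63 and 3.80 to 5.87. SERPINB6 was called in none of 20. SERPINB9 (1.04) and SERPINB1 (-0.77) passed with the mouse as a replicate block (limma adjusted p = 0.0107 and 0.0306), and with voom on recovered reads and the block, at 1.02 and -0.78 (0.00698 and 0.0195). Each of these blocked fits called 1 member lower, against 0. The block changed no other member's call. Signs of uncalled members turned in some settings, and the cause was not tested. Changes between populations with 1 library left out were fitted without the mouse, so the mouse of that library stayed in 1 population only. Differences between mice can enter such a change. Leaving out 1 library moved PRF1 between -0.24 and 0.42, SRGN between -0.94 and 0.28 and SERPINB8 between -0.13 and 1.09. PRF1 was -0.10 without bulk replicate 2, -0.064 without mouse 3 and -0.0090 with voom, SRGN 0.20 without mouse 2 and SERPINB8 -0.12 without mouse 1.

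Over all genes 373 were higher and 183 lower. The counts were 1135 and 1060 with the replicate block, 1216 and 1217 with voom and the block, and 197 and 54 without trend. Leaving out 1 library gave 168 to 346 higher and 38 to 169 lower. Without mouse 1 they were 37 and 0, without mouse 2 they were 85 and 8, and without mouse 3 there were 74 lower; these fits have 4 libraries. Pseudocounts of 1 and 5 CPM called 302 and 280 lower. The related lists had 4, 18, 22, 11, 8 and 14 genes tested, in the order of the text. Of these together 3 were called, and 22 with the block. Beside them 2.71% of all genes were higher and 1.33% lower, and with the block 8.25% and 7.71%. In the lists 25 genes were called with voom and the block and 7 with either pseudocount. A filter of 5 CPM, upper-quartile or quantile scaling gave 5, and eBayes without trend gave 0. Leaving out 1 library gave 0 to 3, and leaving out mouse 1, 2 or 3 gave 0, 0 and 1. Depth limits GZMB in bulk and PRF1 in all libraries; every other member had at least 9 reads in each library.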
